A study of Mus musculus with 12 samples.

Results

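The 36 genes described here comprise 26 genes of the autophagy machinery and 10 genes of lysosomal proteins, measured in 12 RNA libraries of mouse primary myotubes. They were taken as a list of gene symbols matched to the Ensembl identifiers of a deposited table of 20201 genes. All 36 were present, and all 36 reached the mean normalized count of 10 asked of a gene before testing, as did 12553 genes in all. A normalized count is a gene's read count divided by a factor for the depth of its library.

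Myoblasts of mice with a floxed Bmal1 gene were fused into myotubes in low horse serum. Adenovirus was then added for 48 h, either carrying Cre recombinase to delete Bmal1 or empty, and the cultures were kept for 6 h at 1% or 21% O2. The labels put 6 libraries, titled 4 to 6 and 10 to 12, in the Bmal1 knockout genotype with 1% O2 (knockout replicates 1 to 3 and 4 to 6). The other 6 libraries, titled 1 to 3 and 7 to 9, are labelled wildtype with 21% O2 (wildtype replicates 1 to 3 and 4 to 6). As labelled, genotype and oxygen therefore change together and cannot be told apart, and every culture, the empty virus controls included, carries the floxed gene and received a virus. Since the labels tie no replicate to its own mouse or culture, the p-values refer to the spread from library to library alone, and this spread may be technical.

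Autophagy encloses cytoplasm or organelles in a membrane, the autophagosome, and delivers them to lysosomes for breakdown. The ULK kinases and a lipid kinase complex around Beclin 1 start the membrane, conjugation enzymes attach ATG8 family proteins to it, and cargo receptors link ubiquitinated material or mitochondria to those proteins. Lysosomal cathepsins and glycosidases digest the cargo, and the transcription factors TFEB and TFE3 activate many genes of both kinds. In muscle the pathway removes worn proteins and mitochondria and feeds amino acids back, and loss of the lysosomal enzyme acid alpha-glucosidase, encoded by Gaa, causes Pompe disease, a muscle glycogen storage disorder.

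The E-box core CACGTG is recognised both by the dimer of BMAL1 with CLOCK and by the TFEB family. It is shown here for lysosomal genes that were chosen after they had differed by label and that carry it within 250 bases before their RefSeq start. The windows below are the 250 bases before the RefSeq start (GRCm38.p6), 5′ to 3′ on the strand of the gene, with the core in capitals. They lie at chr7:142387828-142388077 on the minus strand for Ctsd, chr8:13158911-13159160 on the plus strand for Lamp1 and chr11:119267713-119267962 on the plus strand for Gaa.
Ctsd: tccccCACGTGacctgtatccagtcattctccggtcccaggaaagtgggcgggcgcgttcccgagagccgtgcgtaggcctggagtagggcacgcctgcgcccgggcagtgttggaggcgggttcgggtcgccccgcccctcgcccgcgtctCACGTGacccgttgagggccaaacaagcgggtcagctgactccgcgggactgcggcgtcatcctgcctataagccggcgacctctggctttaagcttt
Lamp1: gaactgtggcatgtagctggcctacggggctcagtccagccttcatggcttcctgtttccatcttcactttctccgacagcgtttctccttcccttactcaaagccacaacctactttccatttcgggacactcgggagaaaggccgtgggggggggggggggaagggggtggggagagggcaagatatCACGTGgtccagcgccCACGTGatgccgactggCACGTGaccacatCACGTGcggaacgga
Gaa: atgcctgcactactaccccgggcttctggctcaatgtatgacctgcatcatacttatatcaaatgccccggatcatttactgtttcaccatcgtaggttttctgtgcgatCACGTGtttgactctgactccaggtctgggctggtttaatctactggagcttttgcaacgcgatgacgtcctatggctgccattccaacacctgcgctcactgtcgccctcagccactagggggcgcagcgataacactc

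The core starts 245 and 98 bases before the RefSeq start of Ctsd. GENCODE starts Ctsd further upstream, so most of its window, the core at 98 included, lies inside the gene as GENCODE draws it, as does the end of the Gaa window but not its core. Lamp1 holds 4 copies, starting 61, 45, 28 and 15 bases before its start, and Gaa holds 1 copy at 140. A search of both strands over 300 bases, the 250 before the start and the 50 after it, covered the 31 members with a RefSeq entry. It found the core in 4 of 9 lysosomal genes (also in Ctsl, whose printed stretch would lie wholly inside the GENCODE gene) and in 4 of 22 machinery genes (Atg3, Atg5, Atg7 and Atg14). Of all 27025 genes in the mouse table, 8.09% held it, as did 7.15% of its 32851 windows. The shorter ACGTG, which the core contains, was in 4 of the 9 lysosomal and 9 of the 22 machinery genes and in 21.8% of all genes. GCGTG was in 4 of the 9 and 13 of the 22, and in 35.2% of all genes. The core with GT before it and AC after it was in none of the 31 members and in 0.37% of all genes. None of the 4 machinery genes with the core passed the test by label described below. The 4 lysosomal genes with it passed, and so did Lamp2 and Npc2, which were searched and lacked it. Whether the core bears on these differences was not tested. A match describes these letters and is not a measured binding site.

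The libraries held 6376584 to 12463339 reads assigned to genes. Arntl, the gene of BMAL1, had 41.7 to 48.6 normalized counts in libraries labelled knockout and 133 to 179 in libraries labelled wildtype. The oxygen label was not matched in the same way. Egln3, a prolyl hydroxylase gene induced when oxygen is low, had 2036 to 2143 normalized counts in the knockout libraries titled 10 to 12, against 194 to 262 in those titled 4 to 6. In wildtype it had 2199 to 2258 in titles 7 to 9, against 241 to 270 in titles 1 to 3. All 6 genes of a list of known hypoxia targets were higher in titles 7 to 12 than in titles 1 to 6 within each label. Titles 1 to 6 are called set 1 below and titles 7 to 12 set 2, with no condition attributed to either, and "knockout" and "wildtype" stand for libraries so labelled. Wildtype replicate 2 stood apart, with 29.6% of all genes at 0 against 13.0% to 21.9% in the others. Myotube markers were present in every library. Of 9 macrophage markers, Ptprc and Adgre1 stayed at or below 3.30 normalized counts, while Cd68, Lyz2 and Mrc1 reached the mean asked for testing.

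Most of the 10 lysosomal members were higher in knockout than in wildtype myotubes. Averaged over both sets, 9 of the 10 rose at an adjusted p below 0.05, none fell, and Hexa did not pass. Over all genes tested, 30.7% passed in this comparison, 16.2% higher and 14.5% lower. The median difference of the 10 was 0.39 on the log2 scale, against a median of -0.00 over all genes, and 7 of the 10 had no overlap between the 6 knockout and the 6 wildtype libraries, always with knockout higher. Such a separation held for 12.4% of all genes, 7.07% with knockout higher and 5.38% with knockout lower.

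Ctsd encodes cathepsin D, the main aspartic protease of lysosomes (ENSMUSG00000007891, chromosome 7, 142375911 to 142388038). The knockout libraries of set 1 held 5340, 5117 and 4948 normalized counts, and those of set 2 held 4964, 4710 and 4789. In wildtype the libraries of set 1 held 3233, 2743 and 3106, and those of set 2 held 3598, 3390 and 3434. Every knockout library lay above every wildtype library, and within wildtype the second set was the higher one. The average difference was 0.62 ± 0.05 (log2, SE; 1.54-fold, adjusted p = 1.21e-06).

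The cysteine protease cathepsin L is encoded by Ctsl (ENSMUSG00000021477, chromosome 13, 64359337 to 64370890). The knockout libraries of set 1 held 2879, 2661 and 2614 normalized counts, and those of set 2 held 2515, 2535 and 2514. Wildtype libraries held 1779, 1739 and 1699 in set 1 and 1960, 1931 and 1858 in set 2. Here too the groups did not overlap, with the knockout libraries of set 1 highest and the wildtype libraries of set 1 lowest. Ctsl rose by 0.52 ± 0.04 (1.43-fold, adjusted p = 1.18e-06).

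Lamp1 and Lamp2 encode the heavily glycosylated proteins that line the lysosomal membrane. Lamp1 ran from 3904 to 4239 (median 3944) in knockout and from 2665 to 3166 (median 2908) in wildtype libraries, without overlap, a rise of 0.46 ± 0.04 (adjusted p = 2.14e-06). Lamp2 ran from 2095 to 2359 in knockout and from 1649 to 2168 in wildtype libraries, so its groups overlapped, and the rise was 0.20 ± 0.04 (adjusted p = 0.00238). The Lamp2 difference was -0.046 under quantile normalization, so its direction depends on the scaling.

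Gaa (acid alpha-glucosidase, which breaks down glycogen) had 964 to 1186 normalized counts in knockout and 682 to 882 in wildtype libraries. Its difference was the same in both sets, 0.42 ± 0.08 in each, and it was the only member whose call in set 2 held under every alternative processing tried. Psap, the precursor of the saposins that help hydrolases act on sphingolipids, had 3408 to 3902 in knockout and 2470 to 2977 in wildtype libraries (0.38 ± 0.05, adjusted p = 5.5e-05). Npc2, which carries cholesterol out of the lysosome together with NPC1, was close to constant in knockout libraries, from 1543 to 1582, and ran from 1002 to 1279 in wildtype libraries (0.41 ± 0.04, adjusted p = 2.16e-05). All of these separated the labels completely.

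The other cathepsins had smaller differences. Ctsb (cathepsin B) had 2850 to 3135 normalized counts in knockout and 2150 to 2687 in wildtype libraries, a rise of 0.28 ± 0.04 (adjusted p = 0.000422). Ctsz (cathepsin Z) had 658 to 743 in knockout and 548 to 659 in wildtype libraries, a rise of 0.22 ± 0.05 (adjusted p = 0.0046), with the groups meeting at their edge. Hexa, the alpha subunit of beta-hexosaminidase, had 404 to 481 in knockout and 365 to 465 in wildtype libraries (0.08 ± 0.07, adjusted p = 0.37).

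**Figure D1:**
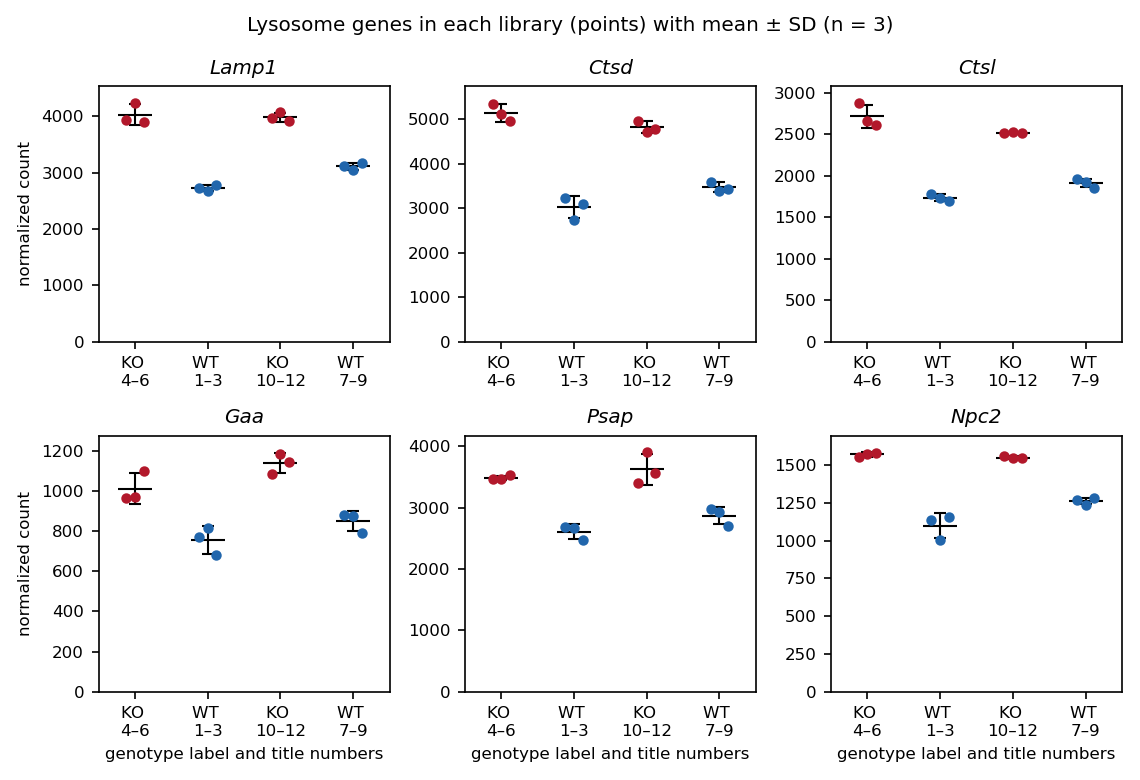
Normalized counts (linear axis from 0) of 6 lysosomal genes in each library, by genotype label and title numbers, with the mean and SD of the 3 libraries in each block. In each gene every knockout library (red) lies above every wildtype library (blue), and the log2 difference is 0.77 in titles 1 to 6 and 0.47 in titles 7 to 12 for Ctsd, a gap that did not pass the test, and 0.42 in both for Gaa.

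Within set 1, titles 4 to 6 against 1 to 3, 9 of the 10 lysosomal genes rose and 9 had ranges that did not overlap. Over all genes in set 1, 18.8% passed, 10.8% higher and 7.97% lower, and 34.5% had ranges apart, 18% higher and 16.5% lower. Within set 2, 6 of the 10 rose, Lamp1, Ctsd, Ctsl, Gaa, Psap and Npc2, and all 10 had ranges apart. Over all genes in set 2, 16.5% passed, 8.84% higher and 7.64% lower, and 40.2% had ranges apart, 21% higher and 19.2% lower. The log2 difference was positive for all 10 in each set, with medians of 0.42 in set 1 and 0.32 in set 2. Over all 36 members 16 rose and 1 fell in set 1, and 8 rose and none fell in set 2. Without wildtype replicate 2, 11 rose and 2 fell in set 2, while of all genes 24.6% then passed, 1665 higher and 1417 lower. The test of the difference between the sets passed for none of the 36 members with limma (smallest adjusted p = 0.549; 0.00797% of all genes passed, 0% higher and 0.00797% lower), edgeR or DESeq2. At an unadjusted p below 0.05 it gave 7 members with limma (Ulk2, Atg4b, Lamp1, Ctsb, Ctsd, Ctsl and Npc2), 7 with edgeR and 8 with DESeq2. The share of all genes at that unadjusted threshold was not counted, so these numbers do not set the members apart.

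Markers of muscle and of other cell types also differed by label. The summed normalized counts of 10 myotube markers ran from 29457 to 32562 in knockout and from 15284 to 20046 in wildtype libraries; 6 of the 10 rose and 2, Myog and Actn2, fell. Ckm, muscle creatine kinase, had 1454 to 1759 in knockout and 406 to 758 in wildtype libraries. The sum of 5 myoblast markers was 1151 to 1250 in knockout and 918 to 1076 in wildtype libraries, where 2 rose (Mki67 and Cdh15) and 2 fell. Myf5 fell by 2.71 ± 0.30, and Msc fell by 2.38 ± 0.26. Of 6 fibroblast markers tested, 1 rose and 2 fell, and their sum was 81172 to 112738 in knockout and 83938 to 99012 in wildtype libraries. The summed level of 5 endothelial markers was 1198 to 1471 in knockout and 889 to 1009 in wildtype libraries, with 4 of the 5 higher. Of 9 markers of macrophages, a cell type rich in lysosomes, only 3 reached the minimum. The sum over the list was 79.0 to 108 in knockout and 63.0 to 110 in wildtype libraries. Mrc1 fell by 1.70 ± 0.41, while Cd68 and Lyz2 went the other way, by up to 0.73, and did not pass. The median of the 3 was 0.53. The part of these cell types in the result was not tested, and in bulk RNA fewer cells of a type and less RNA per cell cannot be told apart.

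In each library 8 very abundant genes, among them the mitochondrial ribosomal RNA genes, took 49.2% to 65.4% of the reads. Single genes among them varied far more, Gm42418 from 1.33% to 43.7% of a library and an unnamed gene (ENSMUSG00000045999) from 0.44% to 42.3%. In 1 alternative all 8 were left out and each library was scaled to the total of its remaining reads. The median over all genes then moved to -0.17. By label 1003 genes were called higher and 3565 lower, against 2031 and 1826 on the deposited scale and 2010 and 1815 with TMM scaling. That alternative changed the kind of scaling as well as the genes, so the shift cannot be assigned to the 8 genes. With the abundant genes left out, the share of calls that were higher was 23.6% in set 1 and 22.6% in set 2. On the deposited scale it was 57.5% and 53.6%. Over all 36 members, 9 were higher and 6 lower in set 1 with the abundant genes left out, and 4 higher and 3 lower in set 2. Of all genes 24% then passed in set 1 and 18.8% in set 2. With the abundant genes left out, 6 lysosomal genes rose and none fell, with a median of 0.23. Under quantile normalization 5 rose and none fell, with a median of 0.15, and of all genes 28.9% passed, 1820 higher and 1805 lower. Within set 1 quantile normalization gave 5 higher (median 0.24), and within set 2 it gave 1 higher (median 0.06). Of all genes 17.5% then passed in set 1 (1135 higher, 1057 lower) and 13.9% in set 2 (778 higher, 962 lower). Without the abundant genes, 7 lysosomal genes were higher in set 1 and 4 in set 2, against 712 and 534 of all 12545 genes tested. Ctsd, Ctsl, Lamp1, Gaa and Npc2 passed the test of the average difference under all 22 alternatives. Lamp2, Ctsb and Ctsz lost it under both of these scalings, and Psap under quantile normalization (adjusted p = 0.175).

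**Figure D2:**
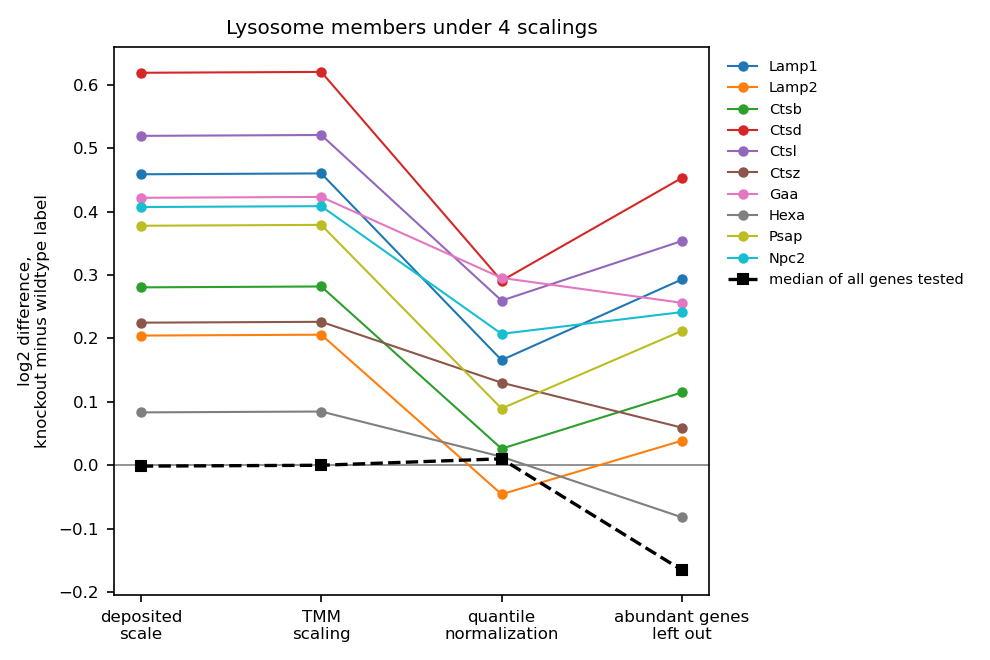
Log2 difference, knockout minus wildtype label, of the 10 lysosomal genes under 4 scalings of the libraries, with the median of all genes tested as a dashed line. Ctsd, at 0.62 on the deposited scale, stays above all-gene medians of -0.00 and -0.17, and Lamp2 lies at -0.046 under quantile normalization.

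The 26 genes of the autophagy machinery were divided. By label 8 rose, 3 fell and 15 did not pass, and their median difference was 0.00. Thus 42.3% passed, against 30.7% of all genes, 16.2% higher and 14.5% lower. Of the 8 that rose, 4 belong to the ATG8 family, and of the 15 that did not pass, 7 belong to the conjugation group. Within set 1, 7 rose and 1 fell, 30.8% passing against 18.8% of all genes. Within set 2, 2 rose and none fell, 7.69% passing against 16.5% of all genes. Over all 36 genes 17 rose and 3 fell by label, 55.6% passing against 30.7% of all genes. When the abundant genes were left out, 3 machinery genes rose and 6 fell by label, 2 rose and 6 fell within set 1, and none rose and 3 fell within set 2. Of 12545 genes tested on that scale, 1003 rose and 3565 fell by label. Within the sets 712 rose and 2301 fell (set 1), and 534 rose and 1830 fell (set 2). The balance of the machinery genes thus depends on the scaling, as does that of all genes.

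ATG8 family proteins are attached to lipid on the autophagosome membrane and bind cargo receptors, and all 5 members passed by label, 4 higher and 1 lower. Gabarap (ENSMUSG00000018567) lies on chromosome 11, 69991143 to 69994951. Its knockout libraries held 974, 985 and 923 normalized counts in set 1 and 926, 996 and 1005 in set 2. In wildtype the libraries of set 1 held 725, 736 and 803, and those of set 2 held 856, 768 and 876. No wildtype library reached the knockout range, and the rise was 0.29 ± 0.05 (1.22-fold, adjusted p = 0.000966).

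Map1lc3b, encoding LC3B, the usual marker of autophagosomes, had 728 to 842 normalized counts (median 803) in knockout and 560 to 650 (median 604) in wildtype libraries, again without overlap (0.40 ± 0.05, adjusted p = 7.98e-05). Gabarapl2 had 145 to 226 in knockout and 109 to 147 in wildtype libraries (0.49 ± 0.11, adjusted p = 0.00381). Map1lc3a had 226 to 326 in knockout and 127 to 259 in wildtype libraries (0.45 ± 0.14, adjusted p = 0.0271). Its call was lost when any of 6 libraries was left out (knockout replicates 1, 3, 4 and 5, wildtype replicates 5 and 6; adjusted p from 0.0515 to 0.0685).

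Gabarapl1 went the other way. It had 234 to 255 normalized counts (median 244) in knockout and 267 to 318 (median 280) in wildtype libraries, with no overlap, and fell by 0.23 ± 0.06 (adjusted p = 0.0139). With the abundant genes left out, Gabarap (adjusted p = 0.0817) and Map1lc3a (adjusted p = 0.136) no longer passed.

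**Figure D3:**
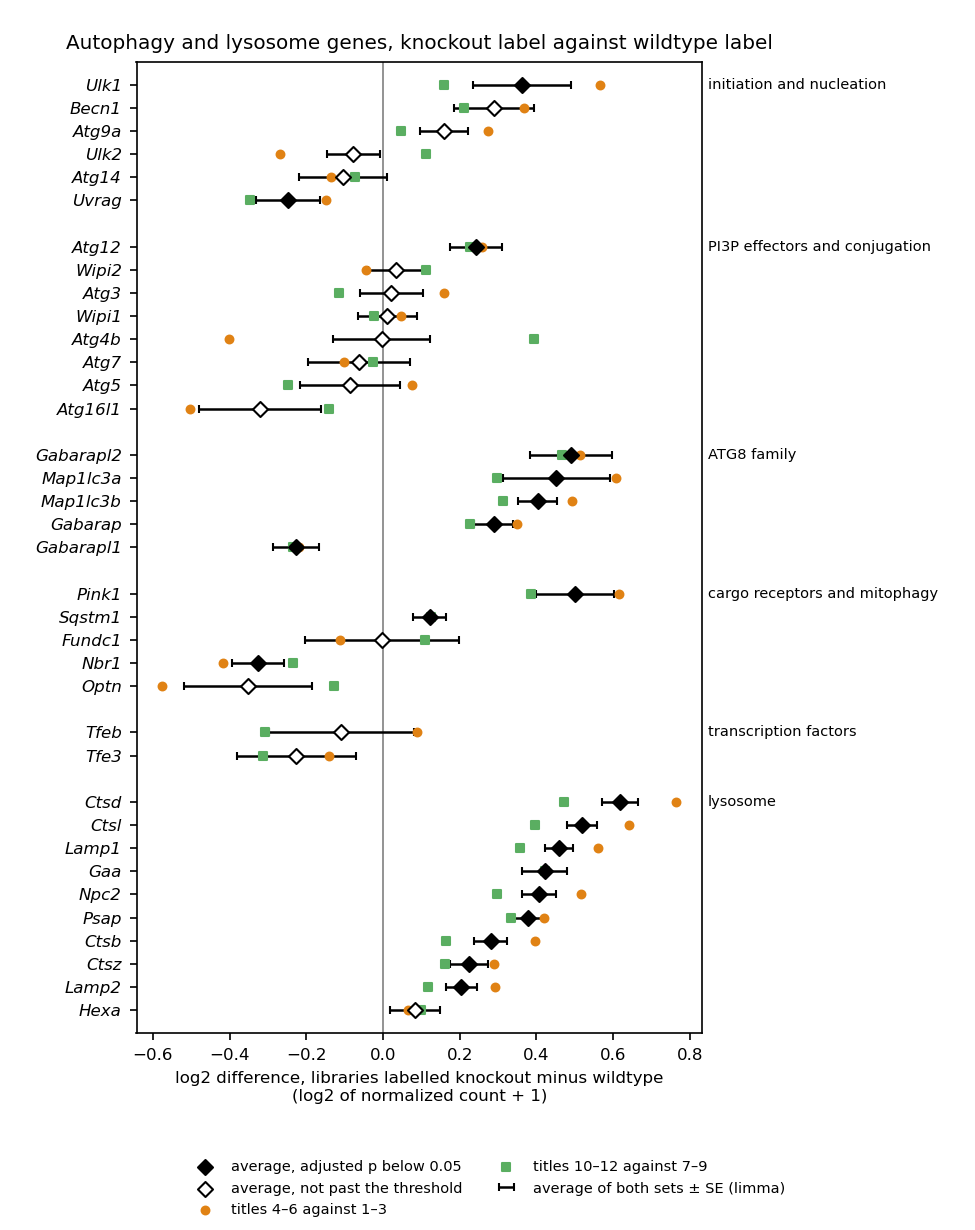
Log2 difference, knockout minus wildtype label, of the 36 genes by role: black diamonds show the average over both sets with its SE (filled where the adjusted p is below 0.05), orange circles titles 4 to 6 against 1 to 3, green squares titles 10 to 12 against 7 to 9. All 10 lysosomal genes lie right of 0 in both sets, from 0.08 (Hexa) to 0.62 (Ctsd), while the machinery spreads over both sides from -0.35 (Optn) to 0.50 (Pink1).

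Cargo receptors and mitophagy genes gave 2 that rose, 1 that fell and 2 that did not pass. Pink1 (ENSMUSG00000028756, chromosome 4, 138313409 to 138326307) encodes the kinase that marks damaged mitochondria for removal. The knockout libraries of set 1 held 349, 305 and 292 normalized counts, and those of set 2 held 291, 331 and 334. Wildtype libraries held 256, 161 and 207 in set 1 and 235, 236 and 258 in set 2. The groups did not overlap, and Pink1 rose by 0.50 ± 0.10 (1.42-fold, adjusted p = 0.00244).

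Nbr1, a receptor for ubiquitinated cargo, had 673 to 870 normalized counts in knockout and 854 to 1123 in wildtype libraries and fell by 0.33 ± 0.07 (adjusted p = 0.00308), with knockout replicate 4 above the lowest wildtype library. Sqstm1 encodes p62, the best studied receptor of this kind. It had 2104 to 2812 in knockout and 2004 to 2587 in wildtype libraries, broadly overlapping, with a difference of 0.12 ± 0.04 (adjusted p = 0.0447). That call was lost without any of 9 libraries (wildtype replicates 3 to 6 and knockout replicates 1 and 3 to 6; adjusted p from 0.0513 to 0.112), and the difference was -0.14 under quantile normalization and -0.044 with the abundant genes left out. Optn (-0.35 ± 0.17, adjusted p = 0.133), a receptor for ubiquitinated mitochondria, and Fundc1 (-0.00 ± 0.20, adjusted p = 0.995), a receptor on the mitochondrial outer membrane, did not pass.

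Among the 6 genes that start autophagosomes, 1 rose and 1 fell by label. Ulk1, the initiating kinase, is described below with the sets, and its label difference was 0.36 ± 0.13 (adjusted p = 0.0468). Its label call was lost without any of 8 libraries (knockout replicates 1 and 3 to 6, wildtype replicates 4 to 6; adjusted p from 0.0646 to 0.109). The Ulk1 difference was 0.24 without wildtype replicate 2 and 0.20 with the abundant genes left out (adjusted p = 0.254). Uvrag, a Beclin 1 partner, had 159 to 210 normalized counts in knockout and 205 to 247 in wildtype libraries (-0.25 ± 0.08, adjusted p = 0.0402). Its call was lost without any of 9 libraries (wildtype replicates 2, 3, 5 and 6, knockout replicates 1 to 3, 5 and 6; adjusted p from 0.0532 to 0.0941). Becn1, encoding Beclin 1 itself, had 328 to 536 in knockout and 280 to 446 in wildtype libraries (0.29 ± 0.11, adjusted p = 0.0536) and passed without wildtype replicate 2 (adjusted p = 0.00839). Ulk2 (adjusted p = 0.433), Atg14 (adjusted p = 0.535) and Atg9a (adjusted p = 0.0728) did not pass by label.

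Of the 8 genes for phosphoinositide effectors and conjugation, only Atg12, the ubiquitin-like protein joined to ATG5, passed by label. It had 216 to 261 normalized counts in knockout and 180 to 236 in wildtype libraries (0.24 ± 0.07, adjusted p = 0.0162; 0.395 with the abundant genes left out). Wipi2 reads the lipid signal on the forming membrane. Its knockout libraries held 391, 363 and 333 normalized counts in set 1 and 435, 453 and 406 in set 2. In wildtype the libraries of set 1 held 400, 321 and 405, and those of set 2 held 394, 377 and 425. The ranges lay on top of each other (0.03 ± 0.07, adjusted p = 0.76). The other 6, Wipi1, Atg3, Atg4b, Atg5, Atg7 and Atg16l1, had adjusted p from 0.149 (Atg16l1) to 0.987 (Atg4b).

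The transcription factor genes Tfeb and Tfe3 did not pass in any comparison. Tfe3 stood at 202, 165 and 197 normalized counts in knockout libraries of set 1 and at 172, 169 and 149 in those of set 2. Wildtype libraries held 191, 314 and 147 in set 1 and 196, 178 and 239 in set 2, with wildtype replicate 2 the highest of all 12. The label difference was -0.23 ± 0.16 (adjusted p = 0.299). Tfeb was low throughout, at 23.6 to 40.8 in knockout and 21.7 to 36.1 in wildtype libraries (-0.11 ± 0.19, adjusted p = 0.701). Their RNA level gives no measure of nuclear entry, the step at which both proteins are mainly regulated.

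Members also differed between the sets, in contrasts of 3 libraries against 3. Between the knockout libraries, replicates 4 to 6 against 1 to 3, 4 of the 36 rose and none fell (of all genes 19% passed, 11.2% higher and 7.89% lower). Between the wildtype libraries, replicates 4 to 6 against 1 to 3, 7 rose and none fell (of all genes 16.8% passed, 9.79% higher and 6.96% lower). Ulk1, Atg14, Atg9a and Sqstm1 rose in both comparisons, and Lamp1, Lamp2 and Npc2 in the wildtype comparison. The shares passing, 11.1% of members in knockout and 19.4% in wildtype, were below and near those of all genes. Ranges were apart in 11 members with set 2 higher and 4 lower in knockout (39.8% of all genes, 19.9% each way), and in 13 higher and 1 lower in wildtype (33.9% of all genes, 17.6% higher and 16.3% lower). Without wildtype replicate 2, 6 members rose and 2 fell between the knockout sets, while of all genes 27.1% then passed, 1866 higher and 1535 lower. Under quantile normalization 2 rose and 2 fell between the knockout sets, and 3 rose and 1 fell between the wildtype sets. Of all genes 18.7% and 18.1% then passed. With the abundant genes left out, 3 rose and 3 fell in knockout, and 3 rose and 1 fell in wildtype, while 21.3% and 19% of all genes passed. On that last scale, 42.6% of all calls between the knockout sets and 38.7% between the wildtype sets were higher, against 58.6% and 58.4% on the deposited scale.

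Ulk1 (ENSMUSG00000029512, chromosome 5, 110784488 to 110810097) held 306, 303 and 357 normalized counts in the knockout libraries of set 2 and 162, 124 and 149 in those of set 1. In wildtype the libraries of set 2 held 299, 280 and 283, and those of set 1 held 114, 68.1 and 117. Every library of set 2 was above every library of set 1 whatever its label. The difference was 1.15 ± 0.18 in knockout libraries (2.22-fold, adjusted p = 0.000621) and 1.56 ± 0.18 in wildtype libraries (2.94-fold, adjusted p = 5.92e-05).

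Atg14 directs the Beclin 1 lipid kinase complex to autophagosome formation. It had 64.3, 65.3 and 74.4 normalized counts in the knockout libraries of set 2, against 40.4, 34.8 and 38.2 in those of set 1. In wildtype it had 81.8, 63.7 and 69.9 in set 2, against 42.3, 40.3 and 42.0 in set 1. The sets were apart in both labels, 0.83 ± 0.16 in knockout (adjusted p = 0.0029) and 0.77 ± 0.16 in wildtype libraries (adjusted p = 0.00561).

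Atg9a, the membrane protein that brings lipid to the growing autophagosome, rose by 0.28 ± 0.09 in knockout (adjusted p = 0.047) and by 0.50 ± 0.09 in wildtype libraries (adjusted p = 0.00163). The knockout call of Atg9a was lost without any of 9 libraries, with adjusted p from 0.0555 to 0.145. Sqstm1 rose by 0.28 ± 0.06 in each (adjusted p = 0.00479 in knockout and 0.00619 in wildtype libraries) and lost both calls under quantile normalization. In wildtype libraries Lamp2 rose by 0.27 ± 0.06 (adjusted p = 0.00619), Lamp1 by 0.19 ± 0.05 (adjusted p = 0.0261) and Npc2 by 0.20 ± 0.06 (adjusted p = 0.0422), and all of these lost their calls under quantile normalization and with the abundant genes left out. The Npc2 call was also lost without any of 10 libraries, and the Lamp1 call without wildtype replicate 1, 4 or 6.

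**Figure D4:**
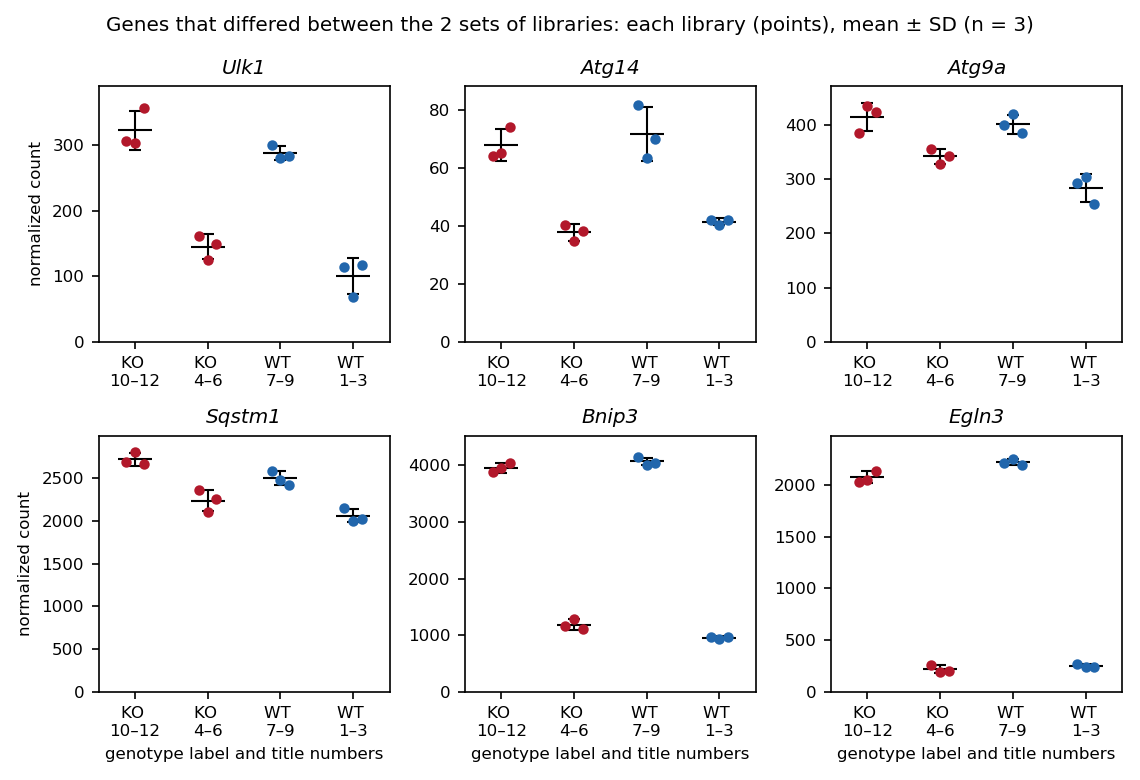
Normalized counts (linear axis from 0) of 4 members and of Bnip3 and Egln3 in each library, set 2 left of set 1 within each label, with the mean and SD of 3 libraries. Ulk1, Atg14, Bnip3 and Egln3 separate by set in both labels, Egln3 at 2036 to 2258 in set 2 and 194 to 270 in set 1.

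A further 149 autophagy and lysosome genes, listed by pathway, gave 146 that could be tested. By label 38 rose and 20 fell, 39.7% passing, with a median of 0.06. Of all genes 30.7% passed, 16.2% higher and 14.5% lower. Of 16 subunits of the V-ATPase, the proton pump that acidifies lysosomes, 9 rose and 3 fell (75%). Atp6v1e1 had 489 to 608 normalized counts in knockout and 242 to 370 in wildtype libraries (0.81 ± 0.09, adjusted p = 1.86e-05). Atp6v0c had 895 to 1060 in knockout and 610 to 634 in wildtype libraries (0.63 ± 0.04, adjusted p = 6.26e-07), and Atp6ap1, an accessory subunit, rose by 0.55 ± 0.06. Atp6v1h and Atp6v1b2 fell by 0.28 ± 0.06 and 0.27 ± 0.06. Under the rescaling without abundant genes 7 subunits rose and 3 fell, while of all genes 1003 rose and 3565 fell.

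Of 39 other lysosomal enzymes and their cofactors 13 rose and 1, Ctsc, fell, 35.9% passing against 30.7% of all genes. Among those that rose were Gm2a (0.55 ± 0.07), a cofactor for ganglioside breakdown, and Ppt1 (0.52 ± 0.12), which removes palmitate from proteins. Both kept their calls under every alternative, but on the scale without the abundant genes the list as a whole gave 5 higher and 4 lower. That scale gave 1003 higher and 3565 lower over all genes. Of 20 other membrane and sorting genes 5 rose and 3 fell (40%). Sort1, a receptor that sorts proteins to lysosomes, had 98.9 to 134 normalized counts in knockout and 159 to 255 in wildtype libraries and fell by 0.85 ± 0.12 (adjusted p = 0.000158). The 3 with the largest rise, Cd63 (0.31), Igf2r (0.29) and Laptm4a (0.23), passed neither under quantile normalization nor without the abundant genes.

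Among 31 tested genes of mTORC1, AMPK and their regulators, which set the rate of autophagy from nutrient and energy supply, 3 rose and 8 fell. The share passing was 35.5%, against 30.7% of all genes. Prkaa2, the catalytic AMPK subunit typical of muscle, had 64.2 to 79.9 normalized counts in knockout and 188 to 224 in wildtype libraries and fell by 1.54 ± 0.08 (2.90-fold lower, adjusted p = 9.32e-08). Tsc2, a brake on mTORC1, had 591 to 685 in knockout and 344 to 395 in wildtype libraries, a rise of 0.78 ± 0.05 (adjusted p = 3.4e-07). Neither gene overlapped between labels, and both passed in each set. With the abundant genes left out, 1 gene of this list rose and 14 fell, while of all genes 1003 rose and 3565 fell. Of 9 tested mitophagy genes 4 rose and 2 fell (66.7%), with Phb2 (0.56 ± 0.12) highest and Mul1 (-0.58 ± 0.16) lowest. Of 31 other machinery genes 4 rose, led by Atg2a (0.33 ± 0.10), and 3 fell, led by Atg13 (-0.38 ± 0.09). These are 22.6% of the list, below the share of all genes. Without the abundant genes none rose and 12 fell, on a scale where 36.4% of all genes passed, mostly as lower.

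Between the sets, the 146 tested genes gave 18 that rose and 5 that fell in the knockout, and 18 and 5 in the wildtype libraries. Each is 15.8% of those tested, no more than the 19% and 16.8% of all genes. Bnip3, a mitophagy receptor induced in low oxygen, had 3876 to 4044 normalized counts in the knockout libraries of set 2, against 1102 to 1286 in those of set 1. In wildtype it had 4016 to 4148 in set 2, against 932 to 974 in set 1. The differences were 1.74 ± 0.06 in knockout (adjusted p = 9.44e-10) and 2.09 ± 0.06 in wildtype libraries (adjusted p = 2.56e-10). By label Bnip3 differed by 0.30 ± 0.06 in set 1 (adjusted p = 0.00466) and by -0.042 ± 0.06 in set 2 (adjusted p = 0.714), and the test of that difference did not pass (adjusted p = 0.468).

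Bnip3l, its close relative, rose by 1.34 ± 0.11 in knockout and 1.11 ± 0.11 in wildtype libraries. Foxo3, a transcription factor that activates autophagy genes in muscle, rose by 1.66 ± 0.07 in knockout and 1.23 ± 0.07 in wildtype libraries. Ddit4, which restrains mTORC1 in low oxygen, rose by 1.58 ± 0.12 in knockout and 1.73 ± 0.12 in wildtype libraries. Its relative Ddit4l fell by 1.36 ± 0.24 in knockout and by 0.90 ± 0.24 in wildtype libraries, the wildtype call being lost without wildtype replicate 1, 5 or 6. Of the machinery list, Atg2b, a lipid transfer protein, rose by 0.91 ± 0.10 in knockout and 0.72 ± 0.10 in wildtype libraries. Rubcn, which slows autophagosome maturation, rose by 0.89 ± 0.15 in knockout and 0.68 ± 0.15 in wildtype libraries. Among lysosomal enzymes, Gusb fell by 0.45 ± 0.10 in knockout and 0.48 ± 0.10 in wildtype libraries.

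**Figure D5:**
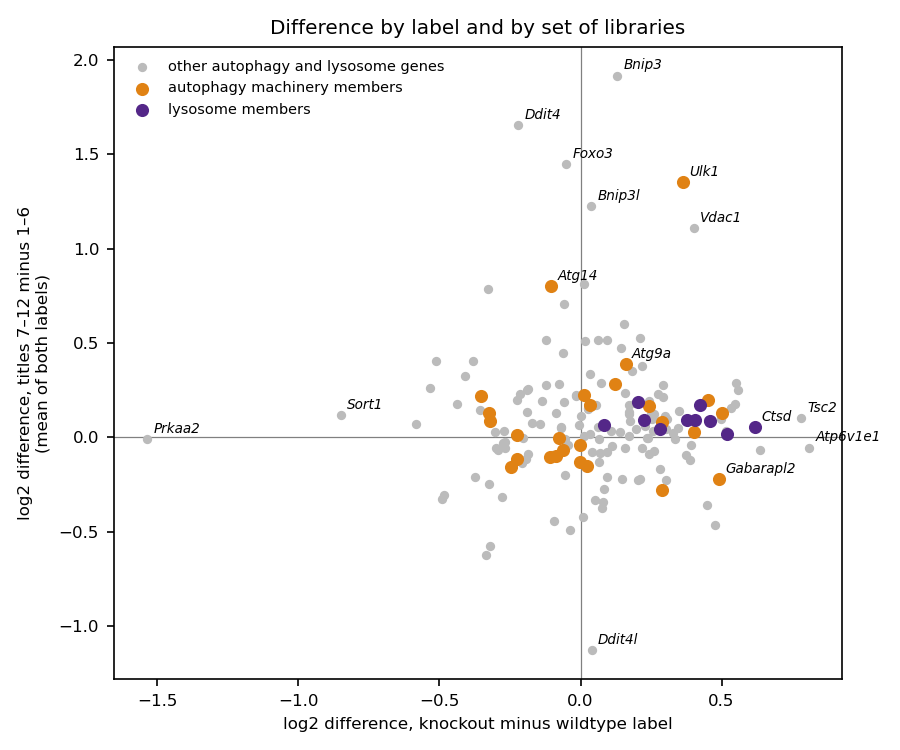
Log2 difference by label (x axis, knockout minus wildtype) against log2 difference by set (y axis, titles 7 to 12 minus 1 to 6, mean of both labels) for the 36 members (orange machinery, purple lysosome) and 146 other autophagy and lysosome genes (grey). The lysosomal members lie right of 0 and near 0 on the y axis, Ctsd at 0.62 on the x axis, while Ulk1 and Atg14 are the members highest on the y axis. Several of the other genes lie above Atg14, among them Bnip3, Foxo3, Ddit4, Bnip3l and Vdac1. Both axes use the same libraries.

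Of the 36 members, 14 passed in none of the comparisons: Becn1, Ulk2, Wipi1, Wipi2, Atg3, Atg4b, Atg5, Atg7, Atg16l1, Optn, Fundc1, Tfeb, Tfe3 and Hexa. A p that misses the threshold does not show that these genes were equal, and their SE by label ran up to 0.20.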

How the data were processed

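The labels' protocols name Direct-zol extraction and TruSeq stranded total RNA libraries. The authors deposited 1 table of normalized counts, a signal per gene and library. The submitters' processing notes name Trimmomatic 0.33, STAR 2.5.2, RSEM 1.3.3, DESeq2 and mm10, with no annotation or strand setting. Genes with near-identical copies or overlapping neighbours are therefore uncertain. When each library's values were divided by the smallest one present, 100% came out as whole reads (tolerance 1e-06), and no 2 libraries matched within counting error (smallest chi-square per degree of freedom 5.04).

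Symbols were found for 98.8% of identifiers, and gene positions (mm10) are from GENCODE M21. Differences were tested two-sided with limma 3.58.1 (trend) on log2(normalized count + 1), so those of low genes are understated, over 4 means (label by set), with Benjamini-Hochberg adjustment over 12553 genes and a threshold of 0.05. The limma step was also run on simulated counts that held label differences but no set difference. Those counts were simpler than these data, so that run gives no error rate here. Count tests on the recovered reads were alternatives: edgeR 4.0.16 called 3933 genes by label and DESeq2 1.42.0 called 3916, against 3857 with limma. The others were pseudocounts of 0.5 and 10, no filter, a minimum mean of 50, TMM scaling, quantile normalization, 8 abundant genes left out, no set term, and each library left out in turn. Without the abundant genes, each library was scaled to the total of its remaining reads.

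The 36 members and all lists were chosen with earlier results of these data known. Values in every library are given for members past the threshold with a log2 difference of at least 0.5 by label or 1 between sets, and otherwise for the member of a role with the highest normalized counts; Atg14 was added after its values were seen. From the wider lists, examples come from the 3 passing genes with the largest rise and fall, and some of these are not reported here. Replicate numbers follow title order and pair no samples.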

Additional observations from a re-analysis of the deposited data

Results flagged for a closer look

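Among the 36 members, the highest or lowest library of each label was compared with its neighbours (72 groups of 6 libraries); chance alone marks about 1 group in 20. Map1lc3a in wildtype replicate 2 had 127 normalized counts, far below the 214 to 259 of the other wildtype libraries, and this is the library with the largest share of genes at 0. Fundc1 in wildtype replicate 6 had 41.4 normalized counts, below 67.3 to 82.8 in the others. Psap in knockout replicate 5 had 3902 normalized counts, above 3408 to 3564 in the other knockout libraries.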

How the results depend on the processing

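By label, 10 of the 20 called members passed with the same sign under all 22 alternatives: Map1lc3b, Gabarapl1, Gabarapl2, Nbr1, Pink1, Lamp1, Ctsd, Ctsl, Gaa and Npc2. Between sets this held for Ulk1 and Atg14 in both labels and for Atg9a in wildtype libraries. Quantile normalization lowered the called members to 10 in set 1 and 3 in set 2 (main 17 and 8), to 4 between wildtype sets (main 7), the members higher by label to 11 (main 17) and the lysosomal ones higher to 5 (main 9). Over all genes it called 17.5% in set 1, 13.9% in set 2, 18.1% between wildtype sets and 28.9% by label. Leaving out the abundant genes gave 9 members higher and 6 lower by label (main 17 and 3) and 4 called between wildtype sets. Of all genes 36.4% and 19% passed in these comparisons. Without a set term, 6 machinery genes passed by label (main 11) and 2416 genes in all (main 3857). The signs that turned were Sqstm1 by label (-0.14 with quantile normalization, -0.044 without the abundant genes) and Lamp2 (-0.046 by label and -0.0037 in set 1, both with quantile normalization). The interaction was called for 1 gene with limma and 29 with DESeq2, none a member. The cause was not tested.

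With 1 library left out, called members numbered 16 to 21 by label, 12 to 17 in set 1, 7 to 13 in set 2, 3 to 8 between knockout sets, 5 to 8 between wildtype sets and 0 for the interaction. By label 14 to 19 were higher, 2 to 3 lower, 9 lysosomal genes higher each time, and 7 to 12 machinery genes called. The counts of 13 in set 2 and 8 between knockout sets were without wildtype replicate 2, when 24.6% and 27.1% of all genes passed. By label 7 machinery genes were called without knockout replicate 1, 3 or 5 or wildtype replicate 6. Where an arm lost a library, the spread was pooled over all 4 blocks. Tfeb was not tested with a minimum mean of 50, and the contrasts within a set have no value without a set term. No paired analysis was possible because the labels give no replicate numbers. Libraries of 6376584 to 12463339 reads limit genes such as Tfeb, whose differences have an SE of 0.19.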
